A study of Mus musculus with 2 samples.

Results

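The collagen genes of the mouse liver were taken as every gene whose symbol reads Col, a number, a, and a number, and 44 of the 19059 genes measured met this rule. They were followed in 2 single-cell libraries of fixed liver cells, 1 from mice labelled AEG-1DMAC and 1 from mice labelled AEG-1fl/fl. AEG-1, also called metadherin and encoded by Mtdh, is a multifunctional protein with oncogenic and proinflammatory roles. Both libraries came from 27-week-old mice that had received a high-fat/high-sugar diet (HF/HSD) from 7 weeks of age, and both genotypes carried floxed AEG-1 alleles. In AEG-1DMAC mice Cre under the LysM (Lyz2) promoter deletes AEG-1 in myeloid cells, so stellate cells, hepatocytes and endothelial cells keep the floxed gene. No library from mice on a control diet was analysed here, the number of livers behind each library was not given in the sources used here, and genotype and library cannot be told apart.

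Collagens are triple-helical proteins built from 3 chains and give tissue its tensile frame. Fibrillar collagens (types I, III and V among them) assemble into the cables of scar tissue, type IV collagens form the sheet of basement membranes, and type VI collagens form beaded filaments between both. FACIT collagens sit on the surface of fibrils, types XV and XVIII lie beside basement membranes, and a few chains span the cell membrane. In a liver with steatohepatitis, hepatic stellate cells that leave their vitamin A-storing state are the main known source of fibrillar collagen. Sinusoidal endothelial cells and bile duct cells also lay down type IV collagen.

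The library labelled AEG-1DMAC held 2571 cells after filtering and the library labelled AEG-1fl/fl 3508 cells, with medians of 12746 and 7682 unique counts per cell. They shared 10 cell barcodes. Cells were placed in classes by marker genes that include no collagen, and stellate-gated cells were those rich in Reln, Pdgfrb, Lrat and Dcn. This gate held 172 cells of the AEG-1DMAC-labelled and 279 cells of the AEG-1fl/fl-labelled library, of which 160 and 254 also fell in the stellate cluster of a clustering made without collagen genes. All 7 stellate markers that were kept out of the gate (Colec11, Ecm1, Hgf, Des, Angptl6, Adamtsl2 and Vipr1, called the label-check markers) were detected there in both libraries. A further 59 and 82 stellate-gated cells also passed another gate and were left out as probable mixtures of cells, and no doublet caller was run.

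The check of the targeted gene went against the labels. In macrophage-gated cells Mtdh stood at 124 CPM (counts of a gene per 1000000 counts, here from 257 counts) in the library labelled AEG-1DMAC and at 22.0 CPM (110 counts) in the library labelled AEG-1fl/fl. Macrophage-gated cells made up 9.22% and 17.1% of the cells. Their share of hepatocyte marker counts was 47.1% and 29.4% of that in hepatocyte-gated cells of the same library. The part of hepatocyte RNA in the Mtdh values was not tested. Which part of Mtdh its probes cover was not given in the sources used here. Each direction below is therefore a difference between 2 labelled libraries. With 1 library per label there was no replicate, no test was run, and every interval covers counting error only (exact, 95%).

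Hepatocyte RNA was present in stellate-gated cells of both libraries and in unequal amounts. The 10 hepatocyte markers (Alb, Apoa1 and others) made up 8.01% of the counts of stellate-gated cells in the AEG-1DMAC-labelled and 5.83% in the AEG-1fl/fl-labelled library. Against hepatocyte-gated cells of the same library this was a relative level of 65.8% and 50.5%. Some gated cells carried markers of other collagen-making cells. At least 2 vascular smooth muscle markers were found in 69 and 120 of the stellate-gated cells, and Myh11, a contractile myosin of smooth muscle, stood at 72.3 and 16.5 CPM. Cells with smooth muscle, portal fibroblast or mesothelial markers also held the label-check markers, at 5239 and 5712 CPM, against 3895 and 7433 CPM in the other stellate-gated cells, and whether they are another cell type was not tested. The cells with such markers were deeper, at medians of 7439 and 8977 counts against 4512.5 and 3917.5 in the others. At least 2 detected markers were required, without a correction for depth. Fewer counts of a chain per cell and fewer cells expressing it cannot be told apart in a level summed over cells.

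Promoter sequences are shown for 4 chains on which the results turn: the basement-membrane pair Col4a1 and Col4a2, high in 2 cell classes, and the fibrillar chains Col3a1 and Col1a2, high in stellate-gated cells. Col4a1 and Col4a2 lie head to head on mouse chromosome 8 on opposite strands, and their windows share 78 bases. Each window runs from 250 bases before to 50 bases after the RefSeq start on GRCm38.p6, 5′ to 3′ on the gene's strand. They are Col4a1 at chr8:11312777-11313076 (minus strand), Col4a2 at chr8:11312555-11312854 (plus), Col3a1 at chr1:45311288-45311587 (plus) and Col1a2 at chr6:4505368-4505667 (plus). Capitals mark matches on either strand to 4 short motifs, which are the CCAAT box, the GC box with the letters GGGCGG, and the TATA motifs written TATAAA and, as an alternative, TATATA. The TATA motifs can overlap each other.
Col4a1: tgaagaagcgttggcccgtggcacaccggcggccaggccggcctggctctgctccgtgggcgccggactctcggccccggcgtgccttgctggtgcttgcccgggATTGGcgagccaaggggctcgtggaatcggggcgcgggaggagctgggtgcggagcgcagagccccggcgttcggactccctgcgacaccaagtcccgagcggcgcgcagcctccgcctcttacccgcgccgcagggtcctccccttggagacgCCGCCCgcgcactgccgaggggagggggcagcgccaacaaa
Col4a2: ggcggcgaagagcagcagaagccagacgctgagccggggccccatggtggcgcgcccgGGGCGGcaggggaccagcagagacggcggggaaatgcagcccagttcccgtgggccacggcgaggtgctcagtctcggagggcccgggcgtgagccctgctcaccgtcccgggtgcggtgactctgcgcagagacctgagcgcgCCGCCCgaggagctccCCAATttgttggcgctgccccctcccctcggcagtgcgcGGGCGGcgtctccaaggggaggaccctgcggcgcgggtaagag
Col3a1: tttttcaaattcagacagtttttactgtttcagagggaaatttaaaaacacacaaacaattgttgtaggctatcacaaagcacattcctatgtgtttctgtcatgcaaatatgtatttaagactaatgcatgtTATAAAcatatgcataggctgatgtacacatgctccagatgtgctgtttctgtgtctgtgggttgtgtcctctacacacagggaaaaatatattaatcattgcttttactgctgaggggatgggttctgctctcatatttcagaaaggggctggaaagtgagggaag
Col1a2: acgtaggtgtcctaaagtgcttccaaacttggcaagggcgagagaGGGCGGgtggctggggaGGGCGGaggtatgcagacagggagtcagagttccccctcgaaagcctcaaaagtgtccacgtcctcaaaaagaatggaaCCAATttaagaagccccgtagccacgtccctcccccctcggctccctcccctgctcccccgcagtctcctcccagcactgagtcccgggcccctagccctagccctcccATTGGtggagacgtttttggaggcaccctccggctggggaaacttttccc

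The G and C content of these windows was 74.0% for Col4a1, 73.7% for Col4a2, 61.0% for Col1a2 and 37.7% for Col3a1. The Col3a1 window held TATAAA, beginning 117 bases before the start, and neither CCAAT nor GGGCGG. Both Col4 windows held CCAAT and GGGCGG, and so did that of Col1a2. RefSeq gave 38 windows for 35 of the 44 collagen genes. GGGCGG was in 23 of these 38 and in 35.7% of all 32851 mouse windows, CCAAT in 13 of 38 and in 37.4%, TATAAA in 5 of 38 and in 13.6%, and TATATA in 2 of 38 and in 5.67%. A match of letters is a description of the window and not a bound site.

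Of the 44 collagen genes, 33 had at least 20 counts over all cells of both libraries, 6 had 1 to 19 counts, and 5 (Col6a4, Col10a1, Col11a1, Col22a1 and Col26a1) had none. A count of 0 allows up to 0.0377 CPM in the AEG-1DMAC-labelled and 0.0333 CPM in the AEG-1fl/fl-labelled library. The 6 low chains were Col2a1, Col9a1, Col9a2, Col17a1, Col19a1 and Col28a1. Over the gated classes alone, 32 chains had 20 counts or more, and Col7a1 was the chain that fell short there. All collagens together made up 0.165% of the counts in the AEG-1DMAC-labelled and 0.248% in the AEG-1fl/fl-labelled library. Levels are compared below for 1 chain between classes or libraries, and not between chains, since the number of probes per gene was not given in the sources used here.

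The first question was which cell class held each chain. Among the 32 chains, 26 had the same class on top in both libraries, and 19 of the 26 were highest in stellate-gated cells. These were 8 fibrillar chains (Col1a1, Col1a2, Col3a1, Col5a1, Col5a2, Col5a3, Col24a1 and Col27a1), both major type IV chains (Col4a1 and Col4a2), the type VI chains Col6a1, Col6a2 and Col6a3, the FACIT chains Col12a1, Col14a1 and Col16a1, and Col15a1, Col8a1 and Col8a2. The fold over the next class had an interval that included 1 for Col5a3 (1.07, 0.848 to 1.34), Col12a1 and Col8a1 in the AEG-1DMAC-labelled and for Col8a2 in the AEG-1fl/fl-labelled library, and Col5a3 had no shared top class in clusters or after subtracting a hepatocyte profile. Cholangiocyte-gated cells led for Col4a3, Col4a4, Col4a5 and Col4a6, endothelial-gated cells for Col13a1, hepatocyte-gated cells for Col18a1 and macrophage-gated cells for Col20a1. For Col6a5, Col6a6, Col9a3, Col11a2 and Col23a1 the top class differed between libraries or had under 3 counts in 1 of them, and for Col25a1 it had under 3 counts in both.

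**Figure D1:**
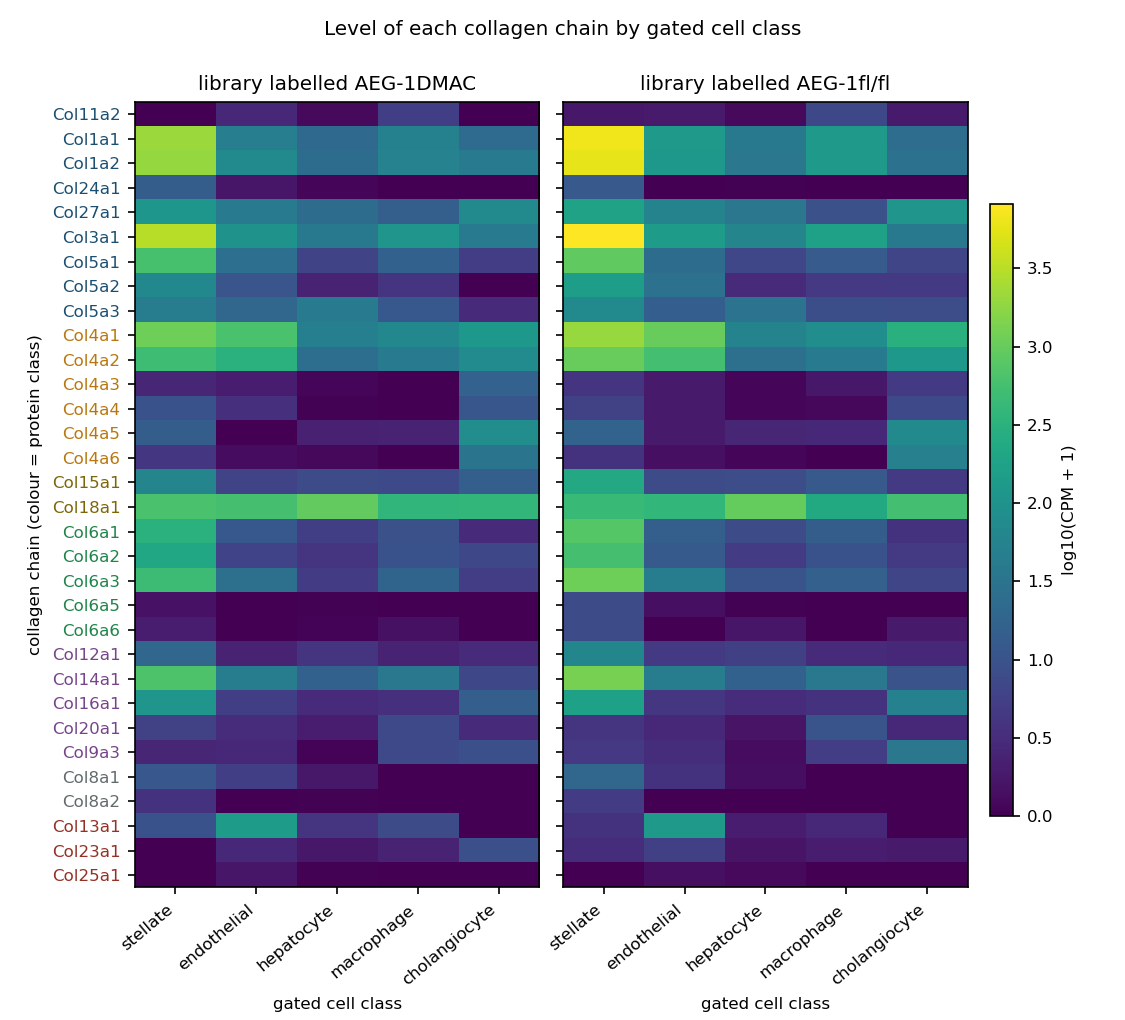
Level of the 32 collagen chains with at least 20 counts over the gated classes, as log10(CPM + 1) by colour, in 5 gated classes and in each labelled library. Chain names are coloured by protein class. The stellate column is brightest for Col1a1, Col1a2 and Col3a1, Col4a1 and Col4a2 are bright in both the stellate and the endothelial column, and Col18a1 is bright in every column.

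Fibrillar chains were concentrated in stellate-gated cells. Col3a1, the chain of type III collagen, stood at 3130 CPM in stellate-gated cells of the AEG-1DMAC-labelled library and 8166 CPM in the other, against 100 and 139 CPM in endothelial-gated and 36.9 and 59.2 CPM in hepatocyte-gated cells. Col1a1, a chain of type I collagen, was at 2121 and 6717 CPM in stellate-gated cells, and elsewhere among endothelial, hepatocyte, macrophage and cholangiocyte gates at 2.42% or less of those levels. The next class was dendritic-gated cells in the AEG-1DMAC-labelled library, at 235 CPM. In the AEG-1fl/fl-labelled library it was B cell-gated cells, at 372 CPM. The shares in endothelial-gated and hepatocyte-gated cells were read against the label-check markers, which were chosen as stellate markers. In endothelial-gated cells those 7 markers stood at 0.866% to 43.8% of their stellate level in the AEG-1DMAC-labelled and at 1.98% to 22.7% in the AEG-1fl/fl-labelled library, and in hepatocyte-gated cells at 0.421% to 6.31% and 0.764% to 3.74%. Highest in endothelial-gated cells were Vipr1 (43.8% and 22.7%) and Hgf (33.1% and 16.4%), and whether that class makes them was not tested. Col1a1 lay within or below these ranges in both classes, so it was not above these markers there.

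The type IV pair was different. Col4a1, which with Col4a2 forms the common trimer of basement membranes, stood at 1120 and 2031 CPM in stellate-gated and at 611 and 1008 CPM in endothelial-gated cells. Endothelial-gated cells therefore held 54.6% and 49.6% of the stellate level of Col4a1, and 64.8% and 55.1% of that of Col4a2 (320 and 554 CPM). Each share was above the highest label-check marker of its library. The ratio of summed fibrillar to summed type IV counts was 4.92 and 7.18 in stellate-gated cells and 0.337 and 0.326 in endothelial-gated cells, so the classes differed in this ratio more than the libraries did.

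The rarer type IV chains, which replace the common pair in specialised basement membranes, were led by cholangiocyte-gated cells (23 and 54 cells). Col4a5 stood there at 81.4 and 73.1 CPM, 6.08 and 4.44 times the stellate level. Col4a6, which pairs with Col4a5, stood at 30.5 and 49.3 CPM, 9.50 and 18.4 times the stellate level. For Col4a3 and Col4a4 the order rested on 4 to 8 counts in each library, and the fold over stellate-gated cells had an interval that included 1 for Col4a4 in both libraries and for Col4a3 in the AEG-1fl/fl-labelled one. Col9a3, a FACIT chain, was also highest in cholangiocyte-gated cells of the AEG-1fl/fl-labelled library at 34.7 CPM, against 8.14 CPM (4 counts) in the other library.

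Col13a1, a collagen that spans the cell membrane, was at 141 and 124 CPM in endothelial-gated cells. In stellate-gated cells it was at 8.57 and 2.68 CPM and in hepatocyte-gated cells at 2.84 and 1.01 CPM. After thinning every cell to 2000 counts, 29.6% and 22.2% of endothelial-gated cells held a count of Col13a1, against 0.385% and 0.490% of hepatocyte-gated cells (median depths before thinning 4595 and 3876 against 26149 and 24304). Col13a1 was thus an endothelial chain in both libraries. Col20a1, a FACIT chain of few known sites, led in macrophage-gated cells at 6.29 and 9.41 CPM, with a fold over the next class whose interval included 1 in each library.

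Col18a1, the precursor of endostatin, was highest in hepatocyte-gated cells, at 952 and 979 CPM. B cell-gated cells came next at 906 and 885 CPM, and the fold between these classes was 1.05 (0.974 to 1.14) and 1.11 (1.04 to 1.18). It was found at 375 to 611 CPM in stellate-, endothelial-, macrophage- and cholangiocyte-gated cells of the AEG-1DMAC-labelled and at 238 to 551 CPM in those of the AEG-1fl/fl-labelled library. The hepatocyte level multiplied by the relative hepatocyte RNA level of a class was 627 and 495 CPM for stellate-gated cells, where 611 and 452 CPM were measured. In endothelial-gated cells the product was 573 and 428 CPM, and 578 and 385 CPM were measured. The measured level was above the product in B cell-gated cells (758 and 806 CPM) and in cholangiocyte-gated cells of the AEG-1fl/fl-labelled library (551 against 424 CPM). The part of hepatocyte RNA in these levels was not tested.

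Col5a3, a chain of type V collagen, and Col27a1, a minor fibrillar chain, were also found in hepatocytes. For Col27a1 the class next to stellate-gated cells was cholangiocyte-gated cells in both libraries. It stood at 71.3 and 110 CPM there, against 114 and 180 CPM in stellate-gated and 23.4 and 35.1 CPM in hepatocyte-gated cells. Col5a3 stood at 43.4 and 70.4 CPM in stellate-gated and 40.5 and 30.0 CPM in hepatocyte-gated cells, which was 93.3% and 42.6% of the stellate level and above every label-check marker. Within hepatocytes it was uneven. Of 5 clusters with hepatocyte markers highest, cluster 8 (103 and 82 cells, led by Aspg, Mlxipl and Nlrp6) held 274 and 186 CPM of Col5a3, and cluster 3 (led by Nr1i3, Mlxipl and Plin4) held 89.4 and 56.7 CPM. The other hepatocyte clusters held 10.0 to 35.5 CPM, and the stellate cluster held 38.6 and 60.7 CPM. Col27a1 had the same first pair among hepatocyte clusters, at 91.2 and 133 CPM in cluster 8 and 50.7 and 72.6 CPM in cluster 3, but stood at 108 and 156 CPM in the stellate cluster. Between the libraries the 2 chains ran in opposite directions in hepatocyte-gated cells, with a log2 ratio of AEG-1DMAC-labelled over AEG-1fl/fl-labelled of 0.43 (0.34 to 0.52) for Col5a3 and −0.59 (−0.69 to −0.49) for Col27a1.

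**Figure D2:**
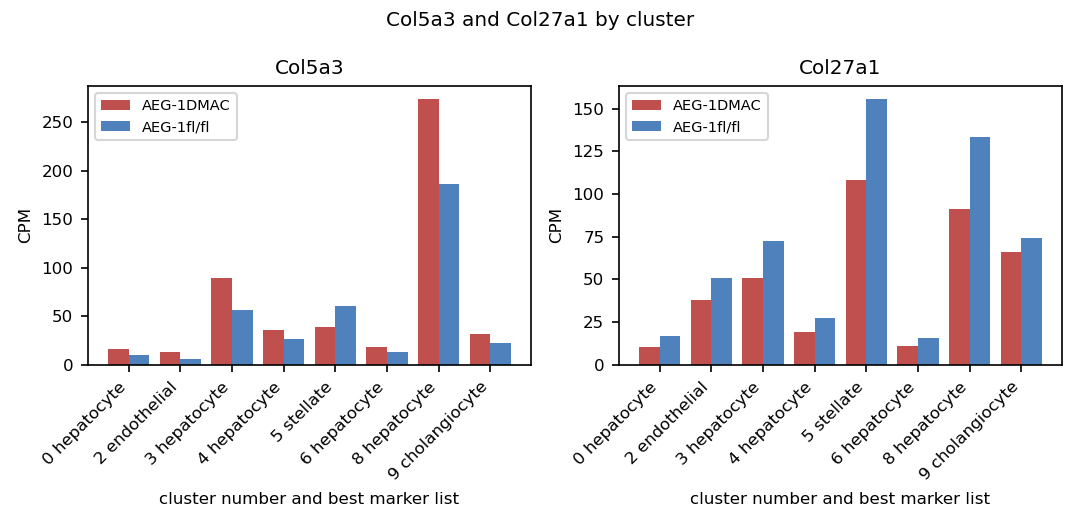
Level in CPM of Col5a3 (left) and Col27a1 (right) in 8 clusters made without collagen genes, named by number and by the marker list that is highest, with 1 bar for each labelled library and no error bar. Cluster 8 is highest for Col5a3 in both libraries, at 274 and 186 CPM, and the stellate cluster is highest for Col27a1.

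The second question was how the chains differed between the libraries. In stellate-gated cells most chains were lower in the library labelled AEG-1DMAC. Of the 23 chains with at least 20 summed counts there, 19 had a log2 ratio below 0, 18 with the interval below 0, and their median was −0.97 beside a median of −0.15 over all 11125 genes with as many counts. At a fold of 2 or more, 11 chains were lower, where 6.28% of all genes were, and 1 chain (Col13a1) was higher, where 1.91% of all genes were. The 7 label-check markers had a median log2 ratio of −0.29, and 5 of the 7 had an interval below 0. The 4 gate markers had a median of −1.03, but these genes selected the cells, so their level there depends on the gate.

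Fibrillar chains were lower with unequal size. Col1a1 stood at 2121 CPM (3958 counts) in the AEG-1DMAC-labelled and 6717 CPM (17549 counts) in the AEG-1fl/fl-labelled library, a log2 ratio of −1.66 (−1.71 to −1.61). Col1a2, its partner in type I collagen, stood at 1987 and 5806 CPM with a log2 ratio of −1.55 (−1.60 to −1.49), and Col3a1 had one of −1.38 (−1.43 to −1.34). These 3 scar-forming chains all differed by more than 2-fold, and Col1a1 by more than Col3a1, with 0.678 and 0.823 counts of Col1a1 per count of Col3a1. Col5a2 stood at 66.4 and 156 CPM with a log2 ratio of −1.23 (−1.53 to −0.94). The other type V chains and Col27a1 were lower by less, with Col5a1, which starts fibrils of type I collagen, at 583 and 898 CPM and a log2 ratio of −0.62 (−0.73 to −0.52), Col5a3 at −0.70 (−1.09 to −0.31) and Col27a1 at −0.66 (−0.90 to −0.42). Col24a1 had 25 and 30 counts and a log2 ratio of 0.22 with an interval that included 0. The 8 fibrillar chains measured here had a median log2 ratio of −0.96, and 4 of them were past the fold.

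Basement-membrane chains were lower by less than the leading fibrillar ones. Col4a1 stood at 1120 and 2031 CPM, a log2 ratio of −0.86 (−0.93 to −0.79), and Col4a2 at 493 and 1006 CPM, a log2 ratio of −1.03 (−1.14 to −0.92). Col4a5 (25 and 43 counts) and Col4a4 (16 and 13 counts) had log2 ratios of −0.30 and 0.78, and both intervals included 0. Of the 4 type IV chains 1 was past the fold, and their median was −0.58. The chains beside basement membranes went apart: Col15a1 stood at 58.4 and 225 CPM with a log2 ratio of −1.95 (−2.26 to −1.65), and Col18a1 was higher, at 611 and 452 CPM with one of 0.43 (0.32 to 0.55). Its higher level moved with the hepatocyte RNA given above.

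Type VI chains were all past the fold, 4 of 4 with 20 counts. Col6a1 stood at 310 and 769 CPM, Col6a2 at 222 and 576 CPM and Col6a3 at 478 and 1098 CPM, with log2 ratios of −1.31 (−1.45 to −1.18), −1.37 (−1.53 to −1.22) and −1.20 (−1.31 to −1.09). These 3 chains assemble into 1 monomer. Col6a1 over Col6a2 stood at 1.39 and 1.33 counts per count, a log2 difference of 0.06 (−0.14 to 0.27). Col6a6 rested on 2 and 18 counts, with a log2 ratio of −2.68 (−5.84 to −0.62).

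Of the fibril-associated chains, Col14a1, which coats fibrils and limits their fusion, stood at 667 and 1303 CPM with a log2 ratio of −0.97 (−1.06 to −0.87). Col12a1, a large chain that links fibrils, stood at 18.8 and 61.2 CPM with one of −1.71 (−2.28 to −1.17), and Col16a1 at 109 and 170 CPM with one of −0.63 (−0.88 to −0.39). Col8a1, a short network-forming chain, had 20 and 49 counts and a log2 ratio of −0.81 (−1.64 to −0.03). Col13a1 had 16 and 7 counts in stellate-gated cells, a log2 ratio of 1.68 (0.32 to 3.20), at 8.57 and 2.68 CPM against 141 and 124 CPM in endothelial-gated cells. The summed endothelial markers moved with it in stellate-gated cells, at 348 and 198 CPM, and their part in this value was not tested.

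**Figure D3:**
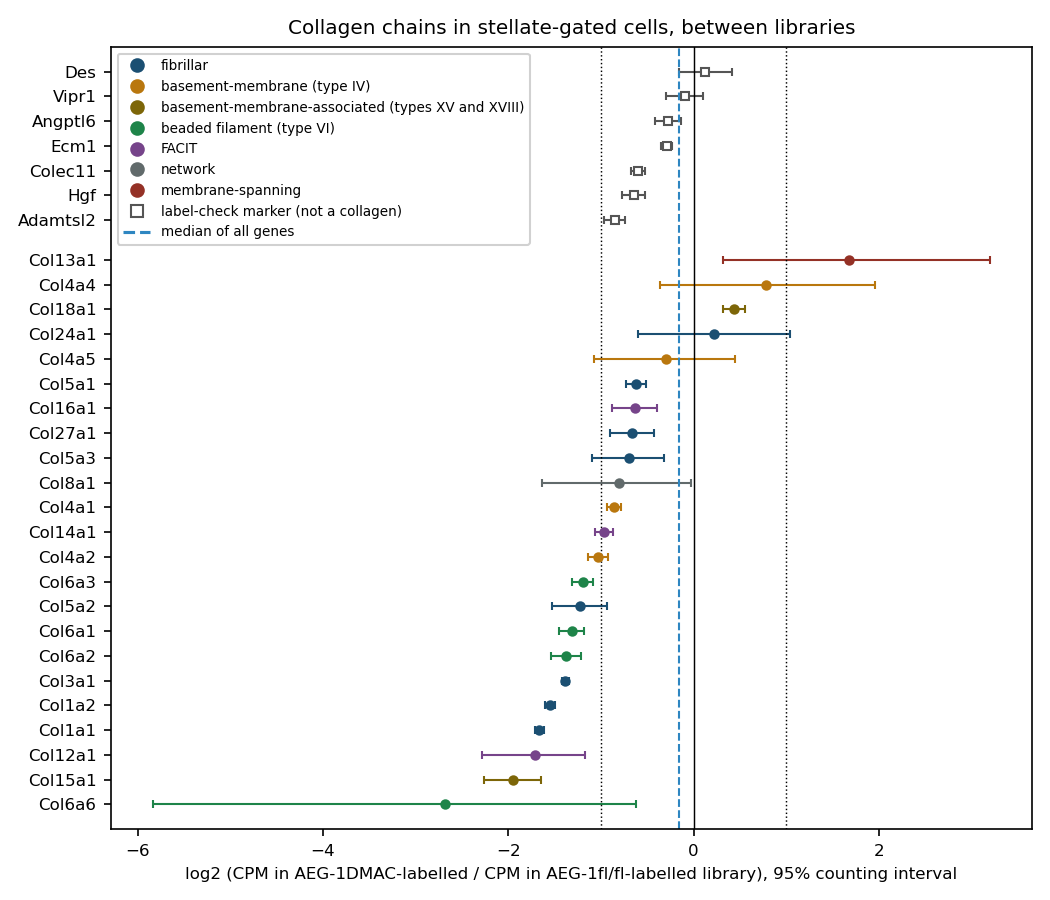
Log2 ratio of CPM between the libraries (AEG-1DMAC-labelled over AEG-1fl/fl-labelled) in stellate-gated cells for the 23 collagen chains with at least 20 counts (filled circles, coloured by protein class) and the 7 label-check markers (open squares), with exact 95% counting intervals. Dotted lines mark a 2-fold difference and the dashed line the median of all genes, −0.15. Of the chains, 19 lie left of 0, and the label-check markers lie between −0.85 and 0.13.

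Summed over their class, fibrillar chains had a log2 ratio of −1.45 (−1.48 to −1.42) and type IV chains one of −0.90 (−0.96 to −0.84). Without Col1a1, Col1a2 and Col3a1 the fibrillar sum was at −0.68 (−0.77 to −0.59), a smaller difference than that of the type IV sum. The larger fibrillar difference thus rested on these chains. Without Col4a1 and Col4a2 the type IV sum was at −0.02 (−0.57 to 0.52), on 50 and 71 counts. The ratio of all fibrillar to all type IV counts does not use the total of the cells, and it was 4.92 against 7.18, a log2 difference of −0.55 (−0.61 to −0.48). In endothelial-gated cells the same difference was 0.05 (−0.10 to 0.19). The difference in stellate-gated cells was smaller without the 74 and 129 cells that carried smooth muscle, portal fibroblast or mesothelial markers, at −0.15. Those cells held 63.3% of the fibrillar, 69.8% of the type IV and 49.5% of all counts of the stellate-gated cells in the AEG-1DMAC-labelled library. In the other library these shares were 75.2%, 73.1% and 68.8%. Measured per count of the label-check markers, fibrillar chains differed by −0.99 on the log2 scale (1.77 against 3.52 counts per count), type VI chains by −0.82 and type IV chains by −0.45. The label-check markers themselves had a log2 ratio of −0.93 (−0.99 to −0.87) in the cells without smooth muscle and related markers. Fibrillar chains had one of −1.58 and type IV chains one of −1.43 there. In the cells with such markers the label-check markers were at −0.12 (−0.17 to −0.08).

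The stellate-gated cells were next split by hepatocyte marker share at 0.5 of the average, a split chosen after the values were seen. The lower group had 79 and 185 cells with relative hepatocyte levels of 21.9% and 17.6%, and the higher group 93 and 94 cells with 78.1% and 84.3%. Fibrillar chains stood at 19716 and 34763 CPM in the lower group, a log2 ratio of −0.82 (−0.85 to −0.78), and at 4796 and 8926 CPM in the higher group, one of −0.90 (−0.94 to −0.85). Type IV chains had log2 ratios of −0.54 and −0.28, and the label-check markers of −0.10 and −0.03. Within each group the difference was thus smaller than over all stellate-gated cells, and fibrillar chains remained further below 0 than the label-check markers. In the lower group alone, 3 chains were lower by the fold in place of 11. There 5.53% of all genes were, and Col27a1, Col16a1 and Col8a1 stood above 0, at log2 ratios of 0.21, 0.06 and 0.26.

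**Figure D4:**
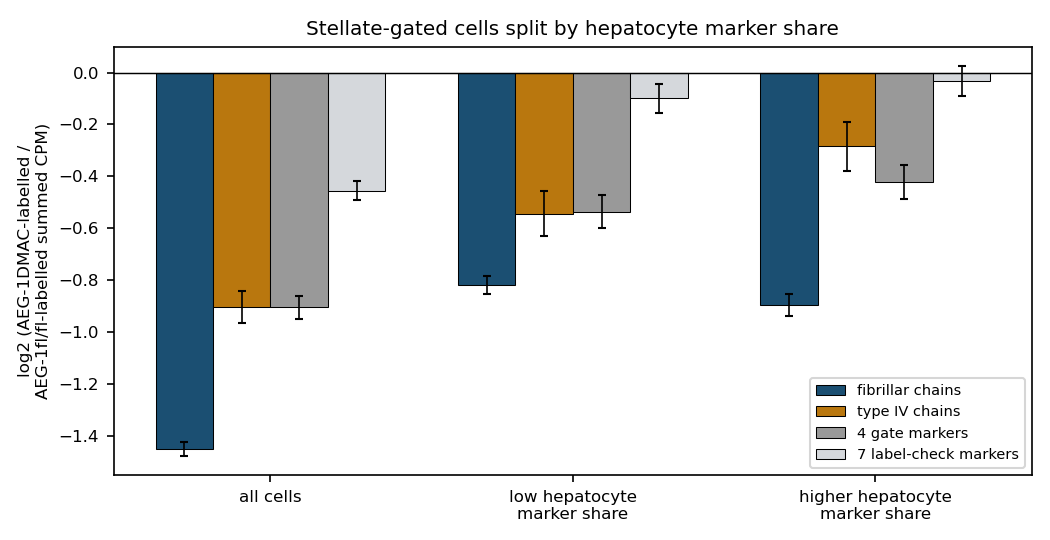
Log2 ratio of summed CPM between the libraries (AEG-1DMAC-labelled over AEG-1fl/fl-labelled) for fibrillar chains, type IV chains, the 4 gate markers and the 7 label-check markers, in all stellate-gated cells and in those with a low and a higher hepatocyte marker share, with exact 95% counting intervals. The fibrillar bar is at −1.45 in all cells, and at −0.82 and −0.90 in the 2 groups, and the label-check bar is closest to 0 in each.

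The typical stellate-gated cell differed as well as the sum. Fibrillar counts per 10000 counts of a cell had a median of 60.9 (quartiles 27.4 and 183) in the 172 AEG-1DMAC-labelled cells and of 143 (quartiles 63.6 and 355) in the 279 AEG-1fl/fl-labelled cells. Type IV counts had medians of 15.4 and 24.9. The tenth of cells with the highest fibrillar share held 43.4% and 39.3% of the summed shares. Thinned to 2000 counts, 67.9% (60.0% to 75.2%) and 88.4% (83.5% to 92.2%) of stellate-gated cells held a count of Col1a1, leaving out 16 and 47 shallower cells (85.5% and 92.8% unthinned). In T and NK-gated cells, which should lack it, the thinned share was 4.88% and 3.95% (2 of 41 and 3 of 76 cells). Median depths there were 4134 and 2883 against 5694 and 5632. Other classes had a higher thinned share in the AEG-1fl/fl-labelled library. It was 5.77% and 9.26% in endothelial-gated, 4.33% and 8.53% in hepatocyte-gated and 4.66% and 10.2% in macrophage-gated cells. In cholangiocyte-gated cells it was 0% and 11.5% (0 of 20 and 6 of 52 cells). The distributions of the libraries overlapped, from 0 to 1581 and from 0 to 2118 per 10000, and cells of 1 library are not replicates.

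**Figure D5:**
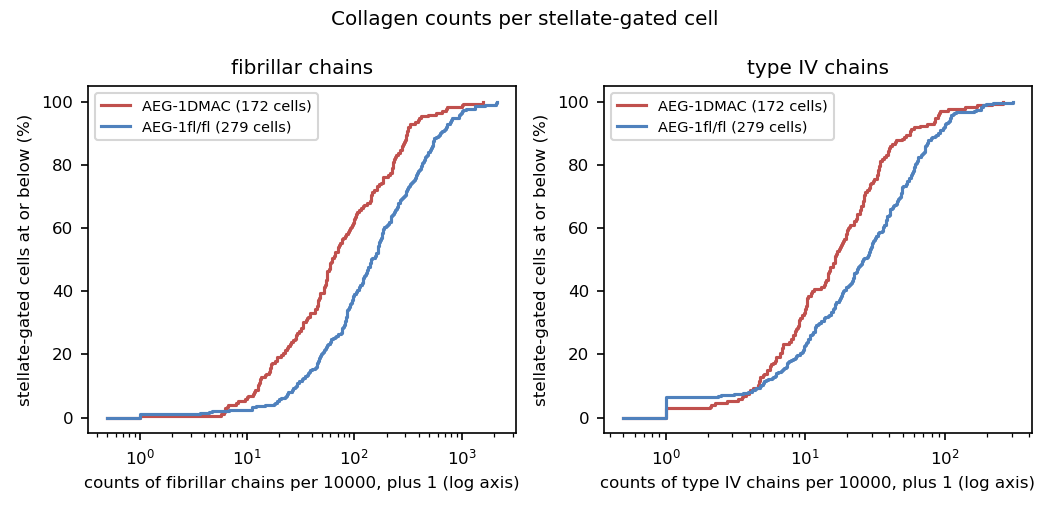
Cumulative share of stellate-gated cells (vertical, %) by their counts of fibrillar chains (left) and type IV chains (right) per 10000 counts plus 1, on a log axis, for the 172 AEG-1DMAC-labelled and 279 AEG-1fl/fl-labelled cells. The AEG-1DMAC-labelled line lies to the left of the other over most of both panels, with medians of 60.9 and 143 for fibrillar and 15.4 and 24.9 for type IV chains.

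Outside stellate-gated cells fewer chains had enough counts, except in hepatocyte-gated cells. In endothelial-gated cells Col4a1 (611 and 1008 CPM) and Col4a2 (320 and 554 CPM) had log2 ratios of −0.72 (−0.81 to −0.63) and −0.79 (−0.92 to −0.67), close to each other and beside a median of −0.21 over all genes. Col13a1, the chain that leads in these cells, had one of 0.18 (−0.05 to 0.41). Of the 16 chains with 20 counts there, 3 were lower by the fold, where 4.67% of all genes were, and none was higher, where 1.85% were, and those lower were Col1a1, Col5a2 and Col6a2, each at a share of its stellate level within or below the range of the label-check markers. For Col5a2 in the AEG-1fl/fl-labelled library (29.0 CPM, against 156 CPM in stellate-gated cells) only Vipr1 of these markers stood at a higher share. In endothelial-gated cells the label-check markers were higher in the AEG-1DMAC-labelled library, with a median log2 ratio of 0.51, and the relative hepatocyte level was 60.2% against 43.7%.

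In hepatocyte-gated cells the 26 chains had a median log2 ratio of −0.19 beside −0.01 for all genes. Col18a1 differed little, by −0.04 (−0.06 to −0.02). The 3 chains lower by the fold (Col6a6, Col9a3 and Col6a3, where 3.68% of all genes were) stood at 9.45 CPM or less, and so did the 2 that were higher (Col8a1 and Col13a1, where 1.94% of all genes were). In macrophage-gated cells the median of 19 chains was 0.02 beside −0.08 for all genes. Col1a1 and Col1a2 were lower by the fold there, at 51.3 and 130 CPM and at 53.2 and 131 CPM, where 4.47% of all genes were, and Col13a1 was higher, where 2.52% were. As shares of the stellate level, Col1a1 and Col1a2 lay within the range of the label-check markers in macrophage-gated cells (1.59% to 14.8% and 0.826% to 12.1%). In cholangiocyte-gated cells Col4a1 stood at 120 and 307 CPM with a log2 ratio of −1.35 (−1.78 to −0.95), further below 0 than in stellate-gated cells. Its level was 10.7% and 15.1% of the stellate one, above the label-check markers, which reached 4.20% and 1.39% there. Col4a1 rested on 59 and 336 counts and Col4a2 on 38 and 130 counts in these cells. Col4a1 over Col4a2 stood at 1.55 and 2.58 counts per count, a log2 difference of −0.74 (−1.39 to −0.08). The difference between the libraries was thus larger for Col4a1 than for Col4a2. Col16a1 and Col9a3 had log2 ratios of −1.87 and −2.09 on 7 and 57 and on 4 and 38 counts, while Col4a5 had one of 0.16 (−0.43 to 0.72), and 3 of 11 chains were lower by the fold, where 7.31% of all genes were, and none higher, where 2.57% were.

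Collagen needs helper proteins before and after it leaves the cell, and receptors to be read by cells. Of 37 genes for collagen hydroxylation, folding, secretion, processing and crosslinking, 33 had 20 counts in stellate-gated cells, with a median log2 ratio of −0.56, beside −0.15 for all genes. At the fold 6 were lower, where 6.28% of all genes were, and none higher, where 1.91% were. The 4 lowest were Fkbp10 and Fkbp14, prolyl isomerases of the endoplasmic reticulum, at −1.27 and −1.07, Plod2, a lysyl hydroxylase for crosslinks, at −1.03, and P3h1, a prolyl 3-hydroxylase, at −1.02. The 4 highest with 50 counts were the secretion genes Sec23a (0.28), Mia3 (0.07) and Mia2 (0.02) and the procollagen protease gene Adamts3 (0.11), none of them with an interval that excluded 0, and Pcolce2 had 0.97 on 14 and 10 counts. Serpinh1, the collagen chaperone HSP47, stood at 819 and 1460 CPM with a log2 ratio of −0.83 (−0.92 to −0.75). Of 10 receptor genes 7 had 20 counts, with a median of −0.68, and 3 were lower by the fold, where 6.28% of all genes were: Ddr1, a collagen-activated kinase, at −1.39, the inhibitory receptor gene Lair1 at −1.24 and Mrc2, an endocytic receptor, at −1.09. Lair1 rested on 20 and 66 counts. Macrophage markers summed to 1480 and 1500 CPM in stellate-gated cells, against 19067 and 22020 CPM in macrophage-gated cells. The part of other cell classes in the receptor values was not tested. Itga1, a collagen-binding integrin chain, stood at −0.68, its partner Itgb1 at −0.31, Ddr2 at −0.27 and Itga11 at 0.03.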

How the data were processed

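Fixed-RNA (probe-based) single-cell libraries of flash-frozen mouse liver were analysed, 1 per label. The deposited values were raw counts of unique molecules per gene and cell, made by the authors with Cell Ranger 7.1.0 against mm10, per the submitters' processing notes. Totals were 79589511 (AEG-1DMAC) and 90440089 counts (AEG-1fl/fl). Barcodes under 100 detected genes or above 10% mitochondrial counts were dropped. A class needed a marker share of 4 times the average of all cells, at least 3 counts and 3 markers (2 of the 4 for stellate cells), and this rule was set after the files were seen. Cells in more than 1 gate were left out. Hepatocyte-gated cells passed no other gate, had a hepatocyte marker share of at least 0.5 of the average and other shares under 2 times theirs. Counts were summed per class and library and given as CPM, and log2 ratios carry exact 95% counting intervals. Genes needed 20 summed counts, and a 2-fold difference was counted. Counting code was tested on simulated data. Clusters came from Seurat 5.3.0 (R 4.3.3) without collagen genes, and the rest from Python 3.11.15, NumPy 2.4.6, SciPy 1.17.1, pandas 2.3.3 and matplotlib 3.10.9. Hepatocyte RNA in a class was set as its hepatocyte marker share relative to hepatocyte-gated cells. Named chains were those with 20 counts in stellate-gated cells or highest in another class, and for helper and receptor genes the 4 lowest and 4 highest ratios with 50 counts. One further stellate marker of the label-check list is not reported here and entered none of its values. The members and lists were chosen with earlier results of these data known. Other gates, cell filters, scalings and subsets were tried.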

Additional observations from a re-analysis of the deposited data

Results flagged for a closer look

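In each case below the log2 ratio between the libraries (AEG-1DMAC-labelled over AEG-1fl/fl-labelled) had a counting interval above 0 in 1 cell class and below 0 in another. The difference was not tested, since each label had 1 library. Col27a1 stood above 0 in macrophage-gated cells, at 0.79 (0.06 to 1.50) from 30 and 42 counts, which was 1.45 above its ratio in stellate-gated, 1.28 above that in endothelial-gated, 1.37 above that in hepatocyte-gated and 1.41 above that in cholangiocyte-gated cells. Its macrophage level, 12.7% and 4.66% of the stellate one, lay within the range of the label-check markers there (1.59% to 14.8% and 0.826% to 12.1%), whose sum had a log2 ratio of 0.43. Col5a3 was higher in hepatocyte-gated cells of the AEG-1DMAC-labelled library and lower in its stellate-gated cells, a difference of 1.13.

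Col18a1 had ratios of 0.43 in stellate-gated, 0.59 in endothelial-gated and 0.66 in macrophage-gated cells, against −0.04 in hepatocyte-gated and −0.48 in cholangiocyte-gated cells. The differences from hepatocyte-gated cells were 0.475, 0.626 and 0.699, and those from cholangiocyte-gated cells 0.914, 1.07 and 1.14. The relative hepatocyte RNA level was higher in the AEG-1DMAC-labelled library in these 3 classes, at 65.8% against 50.5%, 60.2% against 43.7% and 47.1% against 29.4%, and its part in the differences was not tested. Col8a1 stood at 1.04 in hepatocyte-gated cells (44 and 22 counts) and −0.81 in stellate-gated cells (20 and 49 counts), a difference of 1.85.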

How the results depend on the processing

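No paired analysis was possible because each label had 1 library, and for the same reason no replicate could be left out. Summed fibrillar and type IV chains stayed below 0 in stellate-gated cells, and their difference too, under each of 15 alternatives, but the sizes moved. Of these, the totals without hepatocyte-enriched genes, the centring and the label-check scaling shift all genes alike, so the difference could not change under them. Values follow in the order fibrillar, type IV and their difference (log2), where they moved. Without Dcn in the gate they were −1.36, −0.74 and −0.62, and in the stellate cluster −1.29, −0.83 and −0.46. With at least 3 of the 4 gate markers fibrillar chains were at −1.53 and the difference at −0.63, and a stricter cell filter gave −1.42 for fibrillar chains. The mean over cells gave −0.95, −0.60 and −0.35. Totals without hepatocyte-enriched genes gave −1.07 and −0.53, centring on all genes −1.30 and −0.75, and subtracting the hepatocyte profile −0.94 and −0.40. Without the tenth of cells with the highest counts fibrillar chains were at −1.17 and the difference at −0.31. Without smooth muscle, portal fibroblast or mesothelial marker cells the values were −1.58, −1.43 and −0.15, and the label-check markers were at −0.93.

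Chosen after seeing the data, a hepatocyte share under 0.5 gave −0.82, −0.54 and −0.27, scaling to the label-check markers −0.99 and −0.45, a threshold of 8 times the average −1.19 and −0.65, and thresholds per library −1.65 and −1.11. With double-gated cells kept, type IV chains were at −0.76 and the difference at −0.68. The 11 chains lower by the fold became 5 (mean over cells, beside 6.53% of all genes), 6 (totals without hepatocyte-enriched genes, 2.88%), 6 (profile subtracted, 10.9%), 3 (low hepatocyte share, 5.53%), 5 (label-check scaling, 2.45%) and 7 (8 times, 6.53%). They became 12 with 3 of 4 markers (7.01% of all genes) and with the stricter filter (5.82%). They became 13 of 18 chains without smooth muscle and related cells (11.0%), 13 of 22 with thresholds per library (7.77%) and 13 of 29 with no minimum (8.82%). The median chain moved to −0.66, −0.59, −0.48, −0.51 and −0.65 under the settings with 3 to 7 such chains, with no value for the subtraction. It moved to −0.81 (centred), −0.84 (without the tenth), −1.44 (without smooth muscle and related cells), −0.79 (double-gated kept) and −1.12 (per library). The cause was not tested.

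Of 341 single-chain values 12 changed sign. Col4a5 became 0.080 (totals without hepatocyte-enriched genes), 0.20 (profile subtracted), 0.70 (low hepatocyte share) and 0.16 (label-check scaling). Col24a1 became −0.15 (without the tenth), −0.12 (without smooth muscle and related cells) and −0.038 (per library), Col4a4 −0.79 (without smooth muscle and related cells) and Col13a1 −0.38 (mean over cells). At low hepatocyte share Col27a1 was 0.21, Col16a1 0.059 and Col8a1 0.26. Across the 15 alternatives 15 chains stayed below 0, and 4 (Col1a1, Col6a6, Col12a1 and Col15a1) stayed at −1 or lower wherever they had a value. Of the 26 chains with the same top class, 23 to 25 kept that class in clusters, with the mean over cells or after subtracting the profile. In clusters Col4a4 was highest in the stellate cluster of both libraries. Col20a1 had no shared top class in clusters or with the mean over cells, and Col5a3 had none in clusters or after the subtraction. Depth limits chains under 20 counts, whose intervals span several-fold differences.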

Other observations

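Fibrillar chains summed to 108 CPM (80 counts) in the 47 B cell-gated cells of the AEG-1DMAC-labelled and 1111 CPM (1130 counts) in the 73 cells of the AEG-1fl/fl-labelled library. The relative hepatocyte RNA level was 79.6% and 82.3% there. The label-check markers stood at 114 and 234 CPM and the gate markers at 111 and 162 CPM in the same cells, and the part of stellate RNA in these values was not tested. In dendritic-gated cells (18 and 35 cells) fibrillar chains summed to 638 CPM (133 counts) and 388 CPM (215 counts). Their log2 ratio was 0.72 (0.40 to 1.04), opposite in sign to that in stellate-gated cells. The label-check markers stood there at 163 and 191 CPM.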
